A study of Mus musculus with 4 samples.

Results

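Interferon signalling was described here through 8 genes: the ligand gene Ifng, Ifnar1 and Ifnar2 for the chains of the type I receptor, Ifngr1 and Ifngr2 for those of the interferon-gamma receptor, the Janus kinase genes Jak1 and Tyk2, and the transcription factor gene Stat2. They were taken by symbol, and all 8 were among the 23284 gene symbols of each deposited file. RNA was measured in stromal cells from the large intestine of mice that had been sorted as living cells with podoplanin on their surface and without CD45 (leukocytes), CD31 (endothelium) or EpCAM (epithelium). There were 4 libraries, 1 per group: C57BL/6J mice labelled IL-10 KO, C57BL/6J wild type (WT), BALB/c Rag2 KO and BALB/c WT. The sources used here give no age, no number of animals per library and no description of the knockout alleles. Mice without Rag2 form no mature T or B cells but keep natural killer and innate lymphoid cells. Levels are given in FPKM, fragment numbers scaled by transcript length and by the mapped fragments of the library. Levels of different genes are set side by side on this scale, but they depend on the annotation, which the sources used here do not give.

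Type I interferons bind a receptor made of IFNAR1 and IFNAR2, to which the kinases TYK2 and JAK1 are attached. The kinases phosphorylate STAT proteins, among them STAT2, which joins IRF9 in the complex ISGF3 and with it binds interferon-stimulated response elements (ISRE). Interferon-gamma, made mainly by T cells, natural killer cells and innate lymphoid cells, binds IFNGR1 and IFNGR2, acts through JAK1 and JAK2, and leads to STAT dimers that bind gamma-activated sites (GAS). Fibroblasts carry both receptors, and in the gut the pathway raises antiviral and antigen presentation genes.

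With 1 library per group no value has a replicate error, no test between groups was possible, and each statement of higher or lower concerns these single libraries. The library labelled IL-10 KO was set against C57BL/6J WT (the IL-10 comparison), Rag2 KO against BALB/c WT (the Rag2 comparison) and BALB/c WT against C57BL/6J WT. A gene was compared where it had at least 1 FPKM in either library, and it passed 2-fold where log2 of FPKM plus 1 differed by at least 1. Depth, estimated from the steps between low FPKM values, was 8.4e+06 fragments for the library labelled IL-10 KO, 8.72e+06 for C57BL/6J WT, 9.7e+06 for Rag2 KO and 9.96e+06 for BALB/c WT. Intervals are 95% intervals from estimated fragment numbers and cover counting error only, not differences between replicates. PCR copies are not independent molecules, so the intervals may be too narrow even for counting error. All 12 fibroblast markers were detected in all 4 libraries, with sums of 12964 to 14528 FPKM, so the labelled cell type was present. Transcripts of the gated-out cells were present too. Il10 had 129.9 FPKM in the library labelled IL-10 KO and 3.33 FPKM in C57BL/6J WT, which goes against the label unless the remaining transcript lacks the deleted part, and whole-gene FPKM do not show that. Rag2 had 0.712 FPKM in Rag2 KO and was listed at 0 in BALB/c WT, but the 7 measured B and plasma cell markers summed to 2.53 FPKM in Rag2 KO and 462 FPKM in BALB/c WT. Xist had 44.9 FPKM in the library labelled IL-10 KO and 23.02 FPKM in C57BL/6J WT, against 0.105 FPKM in Rag2 KO and 0.0509 FPKM in BALB/c WT. Ddx3y, on the Y chromosome, had 0.0269 FPKM in the library labelled IL-10 KO and 16.9 FPKM in C57BL/6J WT, 31.5 FPKM in Rag2 KO and 36.3 FPKM in BALB/c WT. The C57BL/6J WT library thus held transcripts of both kinds while the library labelled IL-10 KO held little of Ddx3y, and genotype, sex and animal cannot be told apart in that pair. Gapdh, a housekeeping gene, had at most 0.349 FPKM in any library, so a gene near 0 in these files need not be silent. Ratios and ranks between different genes are limited in the same way.

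The receptor genes other than Ifngr1 lie side by side in the mouse genome. Ifnar2 (chromosome 16, 91372783 to 91405589, plus strand, GRCm38), Ifnar1 (91485032 to 91510523) and Ifngr2 (91547059 to 91564007) occupy a stretch of 191 kb whose 4 protein-coding genes also include Il10rb, which encodes a chain of the IL-10 and interferon lambda receptors. The other members are dispersed: Ifngr1 (19591949 to 19610229), Ifng (118441046 to 118445894) and Stat2 (128270498 to 128292853) on chromosome 10, Jak1 (101151974 to 101265282, minus strand) on chromosome 4 and Tyk2 (21104068 to 21131393, minus strand) on chromosome 9.

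The promoters of Stat2 and Ifngr2 are shown because these were the signalling genes at least 2-fold higher in a knockout library, Stat2 in both and Ifngr2 in 1. Each is the 250 bases before the gene start from the RefSeq table of GRCm38.p6, and capitals mark the match to an ISRE core (GAAA, any 2 bases, GAAA). A GAS was searched as TTCNNNGAA, and both motifs on both strands.
Stat2, chr10:128270248-128270497, plus strand: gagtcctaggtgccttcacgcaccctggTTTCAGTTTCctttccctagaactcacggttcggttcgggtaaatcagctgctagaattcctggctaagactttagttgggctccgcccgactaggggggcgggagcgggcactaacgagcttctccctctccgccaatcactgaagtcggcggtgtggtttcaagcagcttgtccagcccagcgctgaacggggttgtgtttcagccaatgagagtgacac
Ifngr2, chr16:91546809-91547058, plus strand: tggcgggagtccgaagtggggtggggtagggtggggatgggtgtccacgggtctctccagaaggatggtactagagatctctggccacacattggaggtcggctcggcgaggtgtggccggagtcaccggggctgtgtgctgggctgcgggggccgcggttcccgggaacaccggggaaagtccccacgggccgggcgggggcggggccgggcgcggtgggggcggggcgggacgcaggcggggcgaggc
The Stat2 window held 1 ISRE core, which on the minus strand reads GAAACTGAAA, and no GAS, whereas the Ifngr2 window held neither. In windows of 300 bases (250 before to 50 after the start), which the table gives for all 8 genes, Stat2 was the 1 member with an ISRE core, and Ifng, Ifnar1 and Ifnar2 each held 1 GAS. An ISRE core was found in 3.44% and a GAS in 8.30% of all 32851 windows, and no match of an ISRE core overlapped a GAS in the member windows. A match describes letters, not a binding site.

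Ifng, the single member that encodes a ligand, stood furthest apart between knockout and wild-type libraries. It had 11.7 FPKM in the library labelled IL-10 KO and 0.114 FPKM in C57BL/6J WT, about 97 fragments against 1. In BALB/c it had 3.61 FPKM in Rag2 KO and 0.301 FPKM in WT, about 35 fragments against 3. Both knockout libraries were thus high and both wild types were at or under the level of 3 fragments, which is 0.348 FPKM in C57BL/6J WT and 0.305 FPKM in BALB/c WT. The ratio of FPKM was 102 in the IL-10 comparison, with an exact interval of 17.7 to 4018, and 12.0 in the Rag2 comparison, with an interval of 3.78 to 60.9. On the scale of log2 of FPKM plus 1, used for every log2 ratio below, these are 3.51 and 1.83, and with a pseudocount of 5 in place of 1 the second was 0.70 and no longer passed 2-fold. Ifng reached the filter of 1 FPKM in either library through the knockout library alone, so it had to differ in order to be compared. Its log2 ratio was exceeded by 0.704% of the genes compared between the C57BL/6J libraries and by 1.46% of those compared between the BALB/c libraries. The values of 0.301 FPKM in BALB/c WT and 0.114 FPKM in C57BL/6J WT had a ratio of 2.63 with an interval of 0.211 to 138, which includes 1.

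The transcripts of cells that make interferon-gamma did not move with Ifng in the same way in both knockouts. The 12 T cell markers summed to 107 FPKM in the library labelled IL-10 KO and 8.31 FPKM in C57BL/6J WT. In BALB/c the same sum was lower in the knockout, with 7.18 FPKM in Rag2 KO and 19.7 FPKM in WT. Of 11 T cell markers compared between the C57BL/6J libraries, 10 passed 2-fold upward and 0 downward. Among all genes compared there, 10.1% passed upward and 3.82% downward. Cd3g, a chain of the T cell receptor complex, was among the 10. It had 18.4 FPKM in the library labelled IL-10 KO and 0.842 FPKM in C57BL/6J WT. Most of the 11, Cd3g included, were under 1 FPKM in C57BL/6J WT and were compared through the library labelled IL-10 KO alone. They had to differ in order to be compared, so the count is not read as a property of the list. Of 8 compared between the BALB/c libraries, 3 passed 2-fold downward and 0 upward, where 2.03% of all compared genes passed downward and 4.42% upward. Cd3g and Cd5 were listed at 0 in Rag2 KO. These 3 genes were compared through BALB/c WT alone and likewise had to differ in order to be compared. Cd3e, another chain of that complex, had 1.26 FPKM in Rag2 KO and 1.22 FPKM in BALB/c WT.

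Markers of natural killer and innate lymphoid cells summed to more in both knockout libraries. The 14 genes summed to 57.3 FPKM in the library labelled IL-10 KO and 6.24 FPKM in C57BL/6J WT, and to 27.6 FPKM in Rag2 KO and 18.6 FPKM in BALB/c WT. Between the BALB/c libraries 4.42% of all compared genes passed 2-fold upward and 2.03% downward. Of the 8 compared genes of the list, 2 passed upward and 0 downward, with a list median of 0.26. They were Gzma, a cytotoxic granule protease gene, with 7.85 FPKM in Rag2 KO and 1.65 FPKM in BALB/c WT, and Ncr1, the receptor gene that marks natural killer and group 1 innate lymphoid cells, with 1.23 FPKM in Rag2 KO and 0.0799 FPKM in BALB/c WT. The difference in Gzma made up the larger part of the difference between the BALB/c sums. Of the 8 compared genes, 3 were lower within 2-fold. Among them was the receptor gene Klrd1, with 0.470 FPKM in Rag2 KO and 1.22 FPKM in BALB/c WT. Ncr1 was compared through Rag2 KO alone and Klrd1 through BALB/c WT alone, and such genes had to differ in order to be compared. In the IL-10 comparison 8 of 11 passed upward and 0 downward, where 10.1% of all compared genes passed upward and 3.82% downward. Most of the 11 were compared through the library labelled IL-10 KO alone and had to differ in order to be compared. The protease gene Gzmb was among the 8, with 17.3 FPKM in the library labelled IL-10 KO and 1.89 FPKM in C57BL/6J WT. Ncr1 had 0.474 FPKM in the library labelled IL-10 KO and was listed at 0 in C57BL/6J WT, so it was not among the 11. T cell markers were higher in that comparison too, and which of these cells held the listed genes was not tested. Set against Ptprc, the gene of the leukocyte antigen CD45, the Ifng level per unit of Ptprc was 0.271 in the library labelled IL-10 KO and 0.0343 in C57BL/6J WT, and 0.313 in Rag2 KO and 0.0362 in BALB/c WT. Ifng was therefore higher relative to Ptprc in both knockout libraries, and the part of any cell type in the Ifng values was not tested. In bulk libraries more cells of a type and more RNA per cell cannot be told apart.

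**Figure D1:**
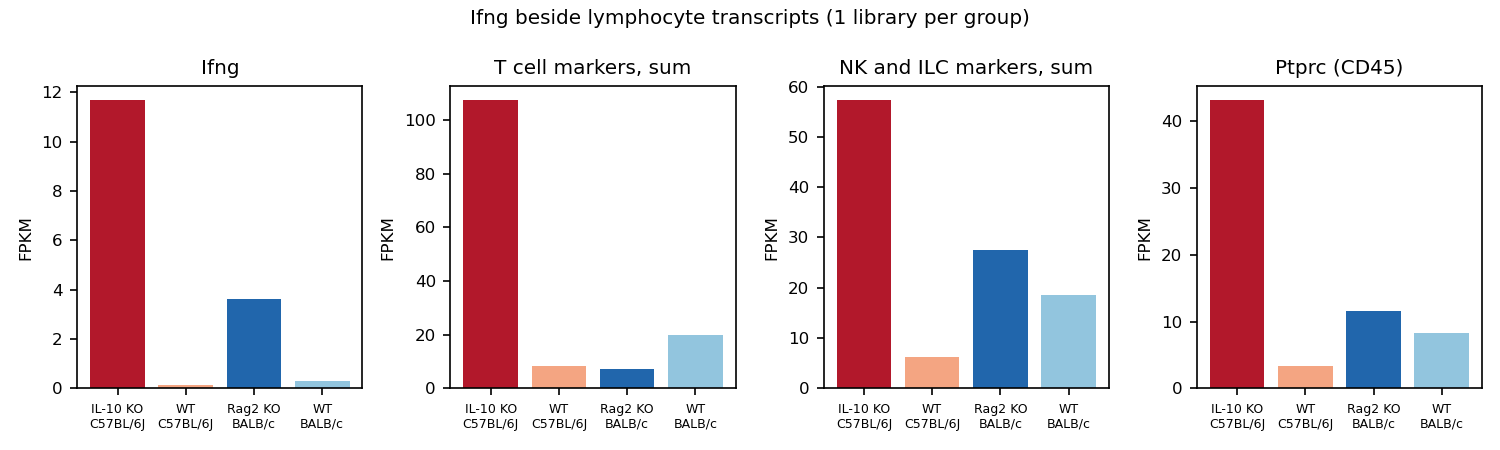
FPKM (vertical axes, from 0) of Ifng, of the summed T cell markers, of the summed natural killer (NK) and innate lymphoid cell (ILC) markers and of Ptprc in the 4 libraries, 1 bar per library. Ifng is higher in Rag2 KO (3.61) than in BALB/c WT (0.301) while the T cell sum is lower (7.18 in Rag2 KO, 19.7 in BALB/c WT), and all 4 measures are highest in the library labelled IL-10 KO.

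Genes that act upstream of Ifng were also described. Of 12 cytokine and receptor genes of this kind, 10 were compared in the IL-10 comparison, with 7 past 2-fold upward and 0 downward. Of all genes compared there, 10.1% passed upward and 3.82% downward. The list median log2 ratio was 1.25, against -0.0018 over all compared genes. Most of the 7 were under 1 FPKM in C57BL/6J WT and were compared through the library labelled IL-10 KO alone. They had to differ in order to be compared, so the count and median are not read as a property of the list. Il18rap, which encodes a chain of the IL-18 receptor, had 6.07 FPKM in the library labelled IL-10 KO and 0.201 FPKM in C57BL/6J WT, and its partner Il18r1 had 7.21 FPKM there and 0.831 FPKM in C57BL/6J WT. For Rag2 KO against WT 3 of 8 were higher and 0 lower, where 4.42% of all compared genes were higher and 2.03% lower. The list median was 0.56, against -0.0041 over all compared genes. Some of the 8, Il12b among them, were compared through Rag2 KO alone, and Il12a through BALB/c WT alone. The 3 higher genes included Il15ra, the receptor chain that presents IL-15 (22.3 FPKM in Rag2 KO, 8.04 FPKM in BALB/c WT). The others were the cytokine gene Il18 (5.64 FPKM in Rag2 KO, 1.98 FPKM in BALB/c WT) and Il12b, for a subunit of IL-12 and IL-23 (1.24 FPKM in Rag2 KO, 0.115 FPKM in BALB/c WT).

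The ligands of the type I and type III receptors were at or near 0. Of 18 measured genes, 15 were listed at 0 in the library labelled IL-10 KO, all 18 in C57BL/6J WT, 16 in Rag2 KO and all 18 in BALB/c WT, and none reached 1 FPKM. Ifnb1, the gene of interferon beta, had 0.212 FPKM in the library labelled IL-10 KO and 0.183 FPKM in Rag2 KO, and was listed at 0 in both wild types. Values this low rest on few fragments and are not read as a difference between knockout and wild type. The Ifna genes are near-identical copies, so their reads may have been split or dropped, and the values do not show that they were silent.

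Among the receptor genes, 1 chain of each receptor had far higher FPKM than its partner. Ifnar2 had 121 FPKM in the library labelled IL-10 KO and 71.0 FPKM in C57BL/6J WT, and 104 FPKM in Rag2 KO and 76.6 FPKM in BALB/c WT. Ifnar1 had 17.6 FPKM in the library labelled IL-10 KO and 11.1 FPKM in C57BL/6J WT, and 15.9 FPKM in Rag2 KO and 15.0 FPKM in BALB/c WT. The Ifnar2 level was 6.90 times that of Ifnar1 in the library labelled IL-10 KO and 6.40 times in C57BL/6J WT, and 6.50 times in Rag2 KO and 5.10 times in BALB/c WT. Mouse Ifnar2 gives rise to membrane-bound and soluble receptor forms, which whole-gene FPKM do not separate.

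For Ifnar2 the knockout library was above its wild type in both strains, with ratios of FPKM of 1.71 (interval 1.59 to 1.84) in the IL-10 comparison and 1.35 (1.26 to 1.45) in the Rag2 comparison. Ifnar1 had a ratio of 1.58 (1.38 to 1.81) in the IL-10 comparison, whereas in the Rag2 comparison it was 1.06 with an interval of 0.943 to 1.20 that holds 1. Neither gene passed 2-fold, with log2 ratios of 0.76 and 0.43 for Ifnar2 and 0.62 and 0.08 for Ifnar1.

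Ifngr1, the ligand-binding chain for interferon-gamma, had 100.3 FPKM in the library labelled IL-10 KO and 79.5 FPKM in C57BL/6J WT, and 78.8 FPKM in Rag2 KO and 62.7 FPKM in BALB/c WT. The step between knockout and wild type was nearly the same in both strains, with log2 ratios of 0.33 and 0.33. Ifngr2, the signalling chain that brings in JAK2, had 24.9 FPKM in the library labelled IL-10 KO and 11.8 FPKM in C57BL/6J WT, and 13.1 FPKM in Rag2 KO and 11.1 FPKM in BALB/c WT. The library labelled IL-10 KO thus stood alone, with the other 3 between 11.1 and 13.1 FPKM. Its ratio to C57BL/6J WT was 2.11 (1.86 to 2.40), a log2 ratio of 1.02, and that of Rag2 KO to BALB/c WT was 1.18 (1.03 to 1.36), a log2 ratio of 0.22. The excess of Ifngr1 over Ifngr2 was accordingly 4.03-fold in the library labelled IL-10 KO, against 6.74-fold in C57BL/6J WT, 6.01-fold in Rag2 KO and 5.65-fold in BALB/c WT. The call of Ifngr2 sat at the threshold and was lost with a pseudocount of 5 (log2 ratio 0.83) and when libraries were rescaled to equal sums or equal medians.

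General leukocyte markers, like Ifngr2, were highest in the library labelled IL-10 KO, but among the other libraries their sums differed more than Ifngr2 did. Per unit of Ptprc, Ifngr2 was 0.577 in the library labelled IL-10 KO and 3.53 in C57BL/6J WT. It was 1.14 in Rag2 KO and 1.33 in BALB/c WT. For the marker counts that follow, 10.1% of all compared genes passed 2-fold upward and 3.82% downward in the IL-10 comparison. In the Rag2 comparison these shares were 4.42% and 2.03%. All 10 general leukocyte markers passed 2-fold upward in the library labelled IL-10 KO, with none at 0. Their sums were 782 FPKM there and 83.2 FPKM in C57BL/6J WT. In BALB/c 0 were higher and 1 was lower, with sums of 208 FPKM in Rag2 KO and 146 FPKM in BALB/c WT. Macrophage markers summed to 1557 FPKM in the library labelled IL-10 KO and 198 FPKM in C57BL/6J WT, with 11 of 12 past 2-fold, and to 766 FPKM in Rag2 KO and 361 FPKM in BALB/c WT, with 5 of 12. Epithelial markers summed to 391 FPKM in the library labelled IL-10 KO and 104 FPKM in C57BL/6J WT, and to 164 FPKM in Rag2 KO and 40.4 FPKM in BALB/c WT, with all 11 past 2-fold in both comparisons. Neutrophil markers summed to 3847 FPKM in the library labelled IL-10 KO and 10.5 FPKM in C57BL/6J WT (7 of 7 higher). In BALB/c they summed to 246 FPKM in Rag2 KO and 24.6 FPKM in WT (6 of 6 compared), with Cxcr2 at 0 in both wild types. Some neutrophil markers, Cxcr2 included, were compared through the knockout library alone and had to differ in order to be compared. Some macrophage, epithelial and B cell markers were likewise compared through 1 library of a pair alone. B and plasma cell markers summed to 482 FPKM in the library labelled IL-10 KO and 248 FPKM in C57BL/6J WT, with 6 of 7 higher, and all 7 were lower in Rag2 KO than in BALB/c WT. Of markers of other stromal and vascular cells, 2 of 12 for fibroblasts, 2 of 6 for lymphatic endothelium and 6 of 7 for smooth muscle were lower in the library labelled IL-10 KO, 4 of 7 for smooth muscle were lower in Rag2 KO, and 0 of 8 for blood endothelium passed 2-fold in either. The part of these cells in the values of Ifngr2 or any other receptor gene was not tested.

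Il10rb, the neighbour of the receptor genes on chromosome 16, had 45.4 FPKM in the library labelled IL-10 KO and 30.6 FPKM in C57BL/6J WT, and 29.9 FPKM in Rag2 KO and 27.4 FPKM in BALB/c WT. All 4 protein-coding genes of the cluster were within or close to 2-fold between the C57BL/6J libraries, with log2 ratios of 0.76 for Ifnar2, 0.56 for Il10rb, 0.62 for Ifnar1 and 1.02 for Ifngr2. Between Rag2 KO and WT the same ratios were 0.43, 0.12, 0.08 and 0.22. Il10ra encodes the ligand-binding IL-10 receptor chain and is mainly a leukocyte gene. It had 14.1 FPKM in the library labelled IL-10 KO and 0.835 FPKM in C57BL/6J WT, and 5.37 FPKM in Rag2 KO and 2.07 FPKM in BALB/c WT. Il10ra was the 1 gene of 2 compared in its list that passed 2-fold in each strain, where 10.1% and 4.42% of all genes passed upward. Between the C57BL/6J libraries it was compared through the library labelled IL-10 KO alone and had to differ in order to be compared. The lambda receptor chain gene Il28ra (Ifnlr1) had 0.657 FPKM in the library labelled IL-10 KO and 0.120 FPKM in C57BL/6J WT, and 0.488 FPKM in Rag2 KO and 0.290 FPKM in BALB/c WT, and was not compared.

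**Figure D2:**
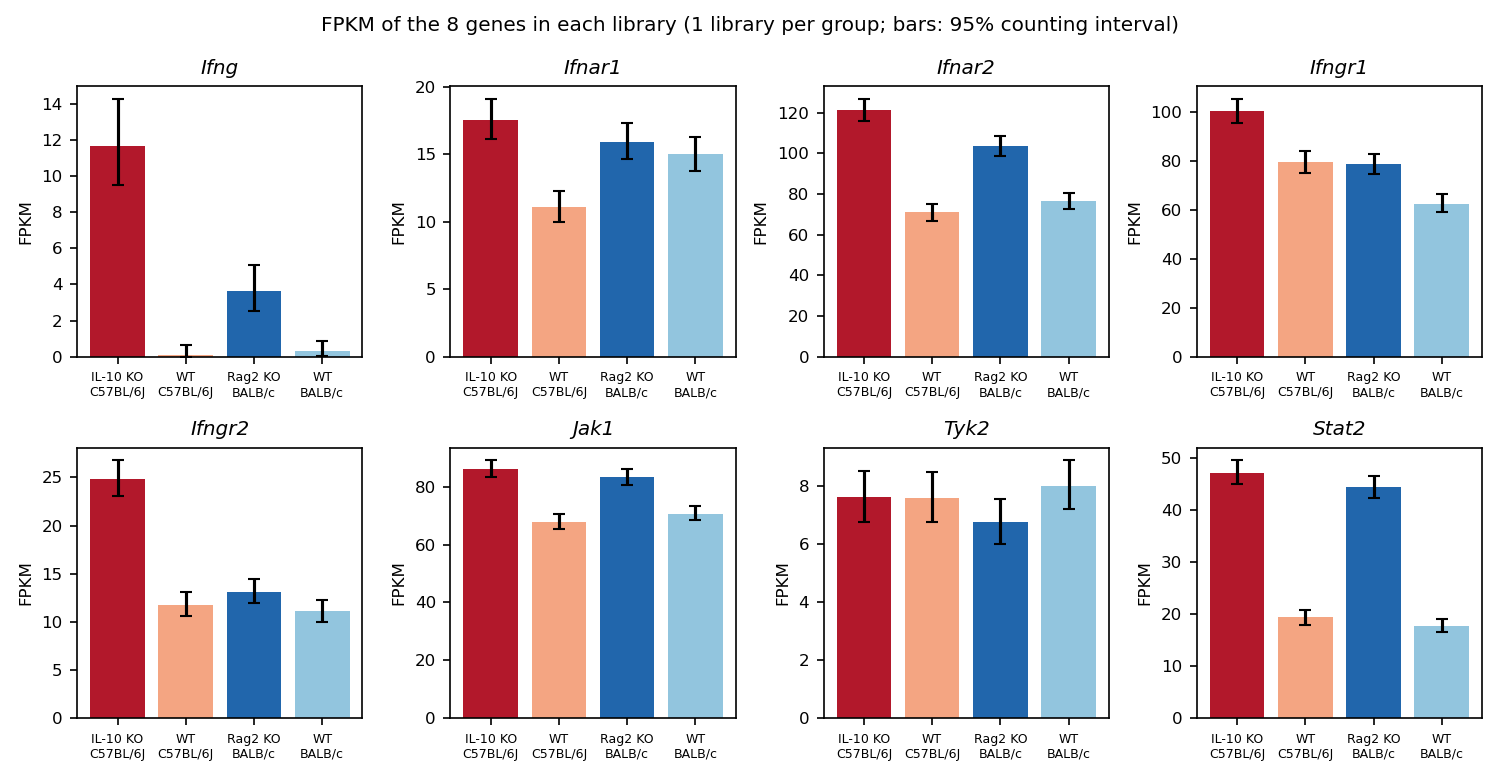
FPKM (vertical axes, from 0) of the 8 genes in each library, with 95% counting intervals as error bars and 1 library per group. Ifng and Stat2 are high in both knockout libraries, Ifngr2 in the library labelled IL-10 KO (24.9, the others 11.1 to 13.1), and Tyk2 spans 6.76 to 8.03.

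Of the kinase genes, Jak1, which serves both receptors, had higher FPKM than Tyk2, which serves the type I receptor. Jak1 had 86.1 FPKM in the library labelled IL-10 KO and 67.8 FPKM in C57BL/6J WT, and 83.2 FPKM in Rag2 KO and 70.7 FPKM in BALB/c WT. Both knockouts were above their wild types, by ratios of 1.27 (1.21 to 1.34) and 1.18 (1.12 to 1.23) that counting error does not reach, but far below 2-fold, with log2 ratios of 0.34 and 0.23.

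Tyk2 had 7.62 FPKM in the library labelled IL-10 KO and 7.59 FPKM in C57BL/6J WT, a ratio of 1.005 with an interval of 0.852 to 1.18. In BALB/c it had 6.76 FPKM in Rag2 KO and 8.03 FPKM in WT, a ratio of 0.843 with an interval of 0.720 to 0.983. It was the member whose level varied least, with a highest value 1.19 times its lowest, and the 1 member of 8 that was not highest in the library labelled IL-10 KO. Jak2, the kinase that attaches to IFNGR2, had 35.2 FPKM in the library labelled IL-10 KO and 17.5 FPKM in C57BL/6J WT (log2 ratio 0.97), and 24.3 FPKM in Rag2 KO and 19.2 FPKM in BALB/c WT (0.33).

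Stat2, the subunit through which ISGF3 activates transcription, was the 1 member besides Ifng that was at least 2-fold higher in both knockouts. It had 47.2 FPKM in the library labelled IL-10 KO and 19.4 FPKM in C57BL/6J WT, and 44.4 FPKM in Rag2 KO and 17.7 FPKM in BALB/c WT. The knockout libraries lay close together and so did the wild types, with no overlap between them. The ratios were 2.44 (2.23 to 2.66) and 2.50 (2.29 to 2.73), or log2 ratios of 1.24 and 1.28, and their difference of -0.03 compares with -0.03 for the median of the 12048 genes compared in both. Per unit of Ptprc, Stat2 was 1.09 in the library labelled IL-10 KO and 5.81 in C57BL/6J WT, but 3.85 in Rag2 KO and 2.13 in BALB/c WT. The leukocyte and epithelial marker sums given above differed between knockout and wild type in both comparisons, and the part of these cells in the Stat2 values was not tested.

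Irf9, whose protein gives ISGF3 its DNA contact, stayed within 2-fold. It had 52.1 FPKM in the library labelled IL-10 KO and 40.1 FPKM in C57BL/6J WT, and 51.2 FPKM in Rag2 KO and 48.7 FPKM in BALB/c WT, with log2 ratios of 0.37 and 0.07. Relative to Irf9, the Stat2 level was 0.906 in the library labelled IL-10 KO and 0.482 in C57BL/6J WT, and 0.867 in Rag2 KO and 0.364 in BALB/c WT. Stat2 was thus below Irf9 in all 4 libraries and nearest to it in both knockouts.

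**Figure D3:**
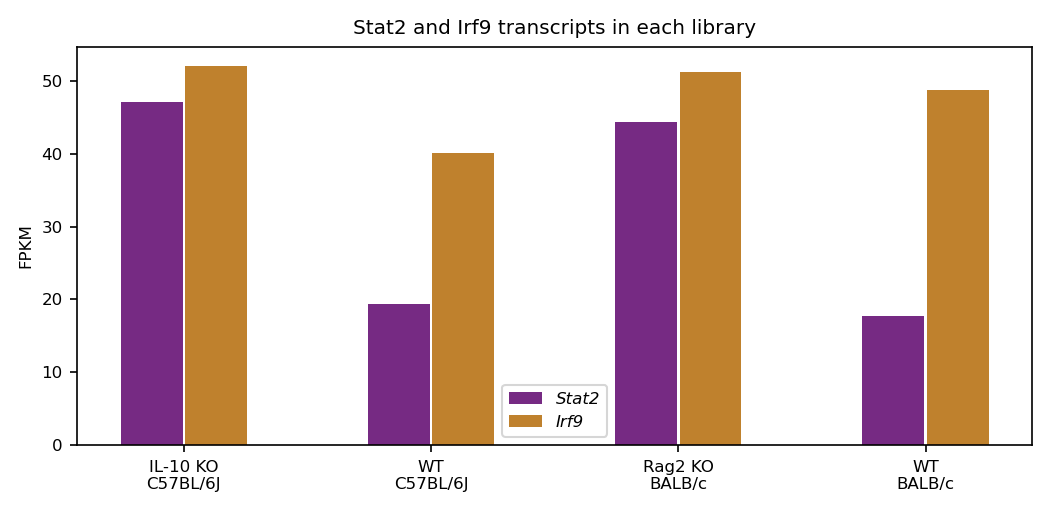
FPKM (vertical axis, from 0) of Stat2 and Irf9 in the 4 libraries, 1 bar per gene and library. Irf9 lies between 40.1 and 52.1 FPKM in the 4 libraries, and Stat2 lies between 44.4 and 47.2 FPKM in the knockouts and between 17.7 and 19.4 FPKM in the wild types.

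Taking the members as a set, 3 of 8 (Ifng, Ifngr2 and Stat2) passed 2-fold upward and 0 downward in the IL-10 comparison. Among all 12790 genes compared there 10.1% were higher and 3.82% lower, 14.0% in either direction, or 1297 and 488 genes, against 1682 and 299 when libraries were scaled to fibroblast markers. Between Rag2 KO and WT 2 of 8 (Ifng and Stat2) passed upward and 0 downward, where 4.42% of 12336 genes were higher and 2.03% lower, 6.45% in either direction, or 545 and 251 genes, against 457 and 328 when sums without small RNAs were made equal. Ifng, which had to differ to be compared, is in both counts, so the counts are not read as a property of the set. The median log2 ratio of the members was 0.69 for the IL-10 comparison, where over all compared genes it was -0.0018, and 0.28 for Rag2 KO against WT, where it was -0.0041. All 8 members were above 0 in the first of these and 7 in the second, although for Ifnar1 and Tyk2 the counting interval held a ratio of 1 in 1 of the comparisons each. Both of these signs turned when sums without small RNAs were made equal, to -0.12 for Tyk2 in the IL-10 comparison and -0.05 for Ifnar1 in the Rag2 comparison. The ratio of the IL-10 comparison exceeded that of the Rag2 comparison most for Ifng (by 1.68), Ifngr2 (0.79) and Ifnar1 (0.54), and all 8 differences lay inside the middle 95% of such differences over all genes, which ran from -0.97 to 1.79. These comparisons share no library.

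**Figure D4:**
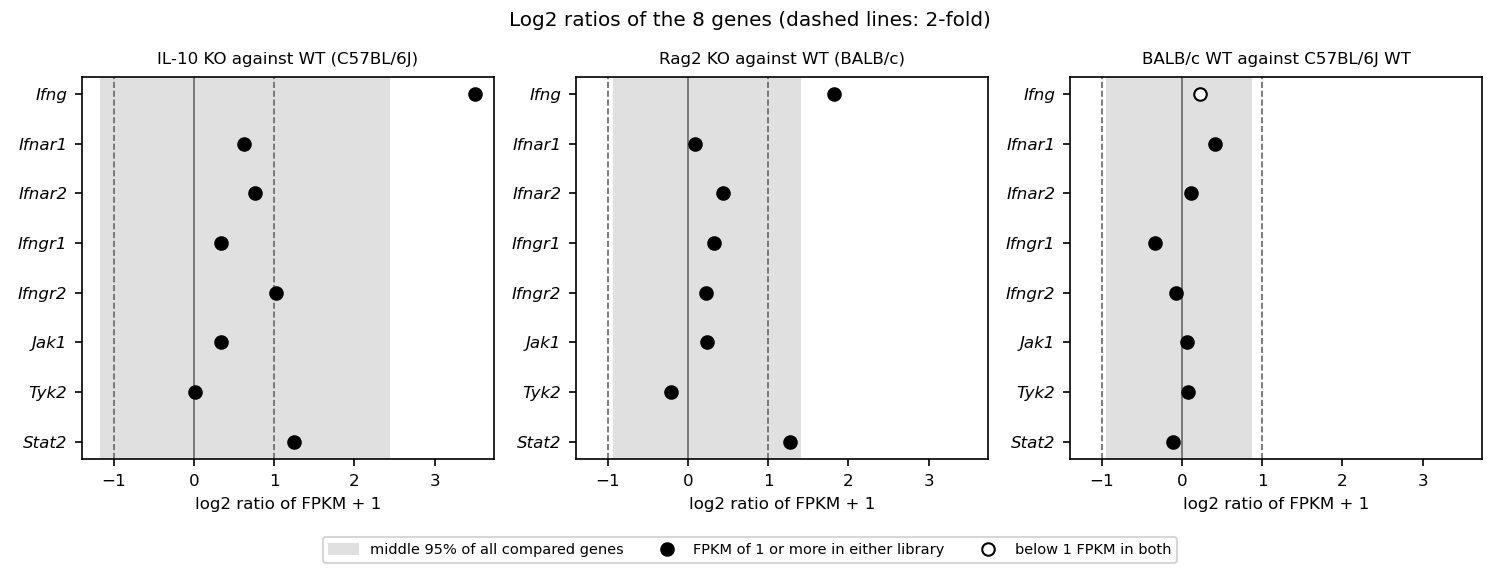
Log2 ratios of FPKM plus 1 (horizontal axes) of the 8 genes in the IL-10, Rag2 and wild-type strain comparisons, with the middle 95% of all compared genes in grey and 2-fold as dashed lines. Ifng lies beyond the grey band in both knockout comparisons (3.51 and 1.83), Stat2 beyond 2-fold but inside the band in both (1.24 and 1.28), and no filled point is beyond 2-fold between the strains.

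The wild-type libraries of the strains were compared in the same way. None of the 7 members that reached 1 FPKM was at least 2-fold apart in BALB/c WT against C57BL/6J WT. Among all 12290 genes compared there 1.81% were higher and 2.17% lower (3.99% in either direction). Beside so small a share, a count of 0 is not read as a result about the members. The median log2 ratio over all 8 members was 0.07. The counting interval excluded 1 for a pair of receptor chains: Ifnar1 had 15.0 FPKM in BALB/c WT and 11.1 FPKM in C57BL/6J WT (ratio 1.35, 1.18 to 1.55), and Ifngr1 had 62.7 FPKM in BALB/c WT and 79.5 FPKM in C57BL/6J WT (ratio 0.788, 0.728 to 0.853). For the other 5 of the 7 it included 1. This comparison shares its libraries with those of the knockouts. Xist had 0.0509 FPKM in BALB/c WT and 23.02 FPKM in C57BL/6J WT, so strain, sex and animal cannot be told apart here.

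The members kept broad ranks, with swaps inside them. Ifnar2, Ifngr1 and Jak1 formed the top in every library and stood above 91.7% to 95.5% of the genes with at least 1 FPKM. Ifngr1 was above Ifnar2 in C57BL/6J WT and below it in the other 3 libraries. Neighbours in that group had overlapping counting intervals for Ifnar2 and Jak1 in both wild types and for Jak1 and Ifngr1 in Rag2 KO. Stat2 came next in every library, above 88.1% of such genes in the library labelled IL-10 KO and 72.0% in C57BL/6J WT, and above 87.0% in Rag2 KO and 69.6% in BALB/c WT. Ifnar1 and Ifngr2 followed, and Tyk2 was below them. Ifngr2 was above Ifnar1 in the library labelled IL-10 KO and below it in Rag2 KO and BALB/c WT, without overlap of the intervals, which overlapped in C57BL/6J WT. Ifng was the lowest member in C57BL/6J WT, Rag2 KO and BALB/c WT, and stood above Tyk2 in the library labelled IL-10 KO.

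For the 3 members that spanned at least 1 log2 unit over the 4 libraries, the genes with the nearest profiles were found by Euclidean distance between mean-centred log2 values, among 8811 named genes with at least 5 FPKM in some library. Nearest to Ifng were Duoxa2 (distance 0.15), needed for a hydrogen peroxide-producing oxidase, the chemokine gene Ccl6 (0.27), the phagocyte metal transporter gene Slc11a1 (0.29), Fcer1g (0.30), an Fc receptor chain, and Upp1 (0.33), uridine phosphorylase. Duoxa2 had 10.3 FPKM in the library labelled IL-10 KO and 0.0826 FPKM in C57BL/6J WT, and 2.91 FPKM in Rag2 KO and 0.217 FPKM in BALB/c WT. Nearest to Stat2 were S100a14 (0.08), the RNA sensor gene Dhx58 (0.09), the double-stranded RNA kinase gene Eif2ak2 (0.10), the peroxiredoxin gene Prdx5 (0.12) and Uba7 (0.15), the activating enzyme for Isg15. Nearest to Ifngr2 were the transcription factor gene Etv6 (0.05), the calcium channel gene Orai1 (0.08), Sh2d3c (0.09), the small GTPase gene Rhog (0.11) and Tnfaip8 (0.11). The distances rest on 4 libraries and describe these alone.

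The other JAK and STAT genes were counted beside the 14.0% of all genes past 2-fold in the IL-10 comparison and the 6.45% for Rag2 KO against WT, and counts this small are not read as a result about them. Of 8 other genes, Irf9 included, 2 passed 2-fold upward and 0 downward in the IL-10 comparison (Stat4 and Jak3, with a list median of 0.78), and for Rag2 KO against WT 0 passed in either direction (list median -0.0068). Stat4, which acts downstream of IL-12 in lymphocytes, had 8.84 FPKM in the library labelled IL-10 KO and 0.660 FPKM in C57BL/6J WT, but 0.669 FPKM in Rag2 KO and 1.27 FPKM in BALB/c WT. Jak3, a kinase of lymphocyte cytokine receptors, had 15.6 FPKM in the library labelled IL-10 KO and 3.29 FPKM in C57BL/6J WT, and 8.92 FPKM in Rag2 KO and 6.27 FPKM in BALB/c WT.

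Among inhibitors of the pathway the shares past 2-fold were near those of all compared genes, 14.0% in the IL-10 comparison and 6.45% for Rag2 KO against WT. Of 12 genes, 2 passed 2-fold upward and 0 downward in the IL-10 comparison (median -0.09), and for Rag2 KO against WT 1 passed upward and 0 downward (median 0.15). Socs1, an inhibitor of JAK kinases, had 141 FPKM in the library labelled IL-10 KO and 55.3 FPKM in C57BL/6J WT (log2 ratio 1.34), and 147 FPKM in Rag2 KO and 82.5 FPKM in BALB/c WT (0.83). Usp18, which blocks IFNAR2, had 9.22 FPKM in the library labelled IL-10 KO and 4.75 FPKM in C57BL/6J WT (0.83), and 9.70 FPKM in Rag2 KO and 3.14 FPKM in BALB/c WT (1.37). Ptpn6, a phosphatase abundant in leukocytes, had 15.1 FPKM in the library labelled IL-10 KO and 1.44 FPKM in C57BL/6J WT (2.72), and 6.32 FPKM in Rag2 KO and 3.32 FPKM in BALB/c WT (0.76).

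Most genes of the target lists were higher in both knockout libraries. The lists were chosen with earlier results of these data known. Of all compared genes, 10.1% passed 2-fold upward and 3.82% downward in the IL-10 comparison (median -0.0018). For Rag2 KO against WT the shares were 4.42% and 2.03% (median -0.0041). Of 20 targets of the ISGF3 type, 15 passed 2-fold upward and 0 downward in the IL-10 comparison (median 1.73). For Rag2 KO against WT 14 of them passed upward and 0 downward (median 1.64). Ifi44 had 6.57 FPKM in the library labelled IL-10 KO and 0.635 FPKM in C57BL/6J WT. Rsad2, the antiviral enzyme viperin, had 7.38 FPKM in Rag2 KO and 0.869 FPKM in BALB/c WT. In these comparisons both genes, like some others of both target lists, were under 1 FPKM in the wild type. Such genes were compared through the knockout library alone and had to differ in order to be compared. Of 20 targets of the interferon-gamma type, 17 passed upward in the IL-10 comparison and 16 for Rag2 KO against WT, with 0 downward in either (medians 2.47 and 2.44). Gbp5, a guanylate-binding protein, had 71.4 FPKM in the library labelled IL-10 KO and 6.18 FPKM in C57BL/6J WT, and 104 FPKM in Rag2 KO and 10.6 FPKM in BALB/c WT. An ISRE core was found in the promoter windows of 9 of the 16 ISGF3-type genes and 6 of the 14 interferon-gamma-type genes in the table, against 3.99% of all genes. A GAS was found in those of 3 of the 16 ISGF3-type and 7 of the 14 interferon-gamma-type genes, against 9.55% of all genes.

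**Figure D5:**
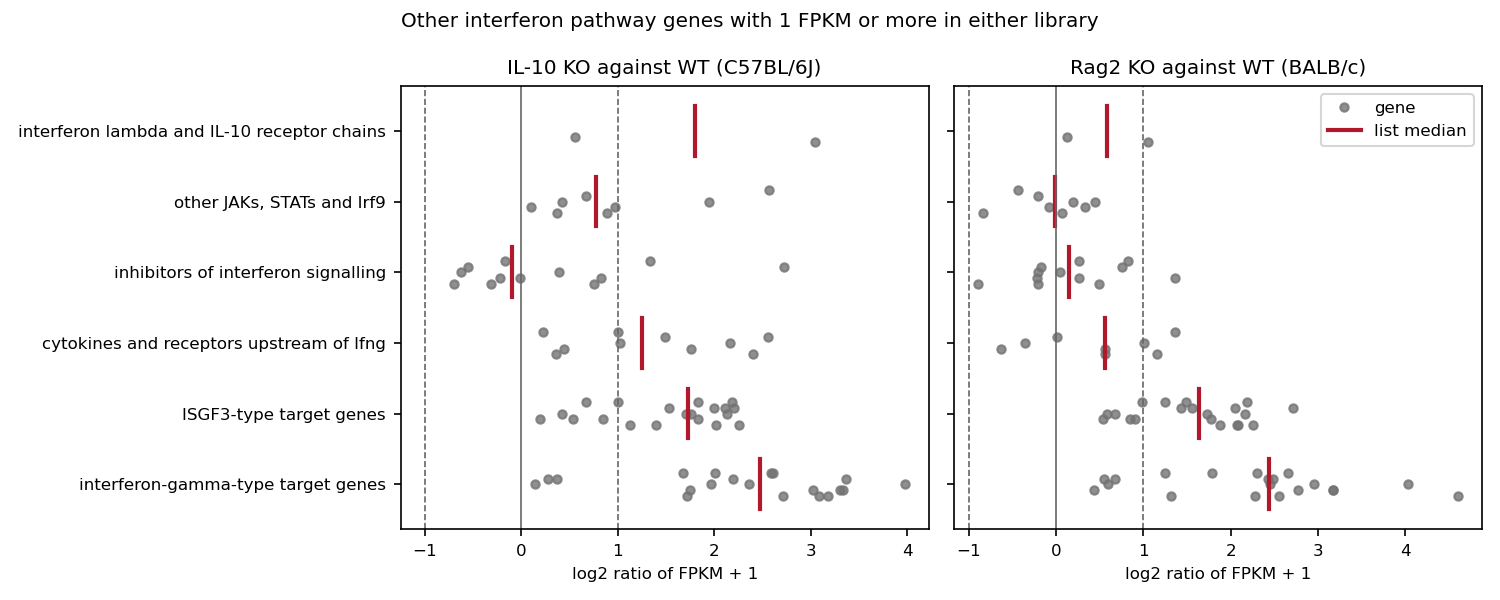
Log2 ratios of FPKM plus 1 (horizontal axes) of single genes (grey) in 6 lists of other pathway genes, with list medians in red, for the IL-10 and Rag2 comparisons. Both target lists lie mostly beyond the 2-fold line (medians 1.73 and 2.47, and 1.64 and 2.44), while the inhibitors scatter around 0 (medians -0.09 and 0.15).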

How the data were processed

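The authors deposited FPKM, 1 value per gene symbol and library. Per the submitters' processing notes, TopHat2 2.1.1, Bowtie2 2.2.8, SAMtools 0.1.18 and Cuffdiff 2.2.1 were used with build mm10, with annotation, strand setting and library normalization not given in the sources used here. Per the labels' protocols, libraries were made with a stranded mRNA kit.

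From these values (Python 3.11.15, pandas 2.3.3, scipy 1.17.1), log2 of FPKM plus a pseudocount of 1 was compared between libraries for genes with at least 1 FPKM in either, and genes at least 2-fold apart (a log2 ratio of at least 1 in size) were counted. With 1 library per group there was no test. Depth was fitted so that low FPKM of genes with 1 RefSeq-linked GENCODE transcript of at least 1000 nt fell on whole fragments, with lengths shortened by 220 nt; 74.2% to 76.8% of 905 to 991 genes per library lay within 0.1 of a whole number. Fragment numbers, from the mean transcript length of a gene, gave Poisson intervals for levels and exact binomial (Clopper-Pearson) intervals for ratios. The floor was 3 fragments. The fit and the counting were tested on simulated data.

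Members, 7 pathway lists and 11 marker lists (199 of 202 genes found) were chosen with earlier results of these data known. Besides members, the named genes are up to 4 per pathway and lymphocyte list with the largest ratios, a few fixed pathway genes, and the 5 nearest profiles. Il28ra, genes used as checks (Il10, Rag2, Xist, Ddx3y, Gapdh) and Cxcr2 were named after their values were seen. Another gene of the pathway is not reported here and was left out of the lists. Promoters are RefSeq's (GRCm38.p6).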

Additional observations from a re-analysis of the deposited data

Results flagged for a closer look

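Of the members, Tyk2 had ratios of opposite sign in the knockout comparisons, 0.01 for the library labelled IL-10 KO and -0.22 for Rag2 KO on the log2 scale. The difference of 0.22 was not tested, as each ratio rests on 1 library per group. The median of the T cell markers was 2.57 for the library labelled IL-10 KO against WT and -0.84 for Rag2 KO against WT, a difference of 3.41, and that of the B and plasma cell markers was 2.32 and -2.48, a difference of 4.80. The other JAKs, STATs and Irf9 had medians of 0.78 and -0.0068 (difference 0.78), for the same comparisons in that order. The inhibitors of interferon signalling had medians of -0.09 and 0.15 (difference -0.24), and blood endothelial markers 0.01 and -0.05 (difference 0.060). None of these differences was tested. Some T cell and B cell markers were compared through 1 library of a pair alone and had to differ in order to be compared.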

How the results depend on the processing

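No member past 2-fold changed sign under the 8 alternatives tried. The number of members at least 2-fold apart was 3 in the IL-10 comparison and 5 with a threshold of 1.5-fold, which adds Ifnar1 and Ifnar2. In the Rag2 comparison it was 2, and it was 1 (Stat2) with a pseudocount of 5 and also 1 with a filter of at least 5 FPKM, which Ifng does not reach. Between the wild types it was 0 throughout. The log2 ratio of Ifng depended on the pseudocount: 5.78 with 0.1 and 1.71 with 5 in the IL-10 comparison, and 3.21 and 0.70 in the Rag2 comparison, because the wild-type values rest on 1 and 3 fragments. Ifngr2 left the call with a pseudocount of 5, with equal sums without small RNAs and with equal medians, and Ifnar2 entered it (1.04) when libraries were scaled to fibroblast markers. That scaling moved the median of all genes in the IL-10 comparison to 0.25, and equal sums without small RNAs moved it to -0.13 (-0.13 in the Rag2 comparison). Over all compared genes a pseudocount of 5 gave 611 higher and 182 lower in the IL-10 comparison, against 1297 and 488, and 278 and 68 in the Rag2 comparison, against 545 and 251. A pseudocount of 0.1 gave 1665 and 787, and 780 and 532, and a threshold of 1.5-fold 2104 and 1393, and 1270 and 944. Between the wild types the 223 higher and 267 lower genes became 56 and 104 with a pseudocount of 5, 477 and 452 with 0.1, 129 and 181 with at least 5 FPKM, and 725 and 783 at 1.5-fold. Of the 160 recomputed member ratios, 137 moved by less than the counting error and 23 by more. No paired analysis was possible because each group has 1 library and the labels give no replicate numbers. Depth limits Ifng in the wild types, the interferon ligands and the lymphocyte markers, many of which rest on few fragments.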

Other observations

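Some values of STAT genes outside the interferon response are given here. Stat5a, a mediator of growth hormone and cytokine signals, had 15.4 FPKM in BALB/c WT and 6.45 FPKM in C57BL/6J WT (log2 ratio 1.13), the 1 gene of the other JAKs, STATs and Irf9 at least 2-fold apart between the strains. It had 12.8 FPKM in the library labelled IL-10 KO, against 6.45 FPKM in C57BL/6J WT, and 8.14 FPKM in Rag2 KO, against 15.4 FPKM in BALB/c WT, so the ratios of 0.89 and -0.84 point opposite ways. Cish, a STAT5 target gene and inhibitor, had 49.9 FPKM in the library labelled IL-10 KO and 62.3 FPKM in C57BL/6J WT, and 53.7 FPKM in Rag2 KO and 100.8 FPKM in BALB/c WT. Stat3, which mediates IL-10 and IL-6 signals, had 150.6 FPKM in the library labelled IL-10 KO and 94.3 FPKM in C57BL/6J WT, and 145 FPKM in Rag2 KO and 167 FPKM in BALB/c WT.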
